A study of Mus musculus with 4 samples.

Results

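Slc32a1-positive inhibitory neurons were the cells of mouse inner ear organoids that carried transcripts of Slc32a1, the transporter that fills synaptic vesicles with GABA and glycine. A cell was taken into the class when its barcode had 1000 or more detected genes, 15% or less mitochondrial UMIs, 2 or more Slc32a1 UMIs, 1 or more UMIs of Tubb3 (a tubulin of neurons), fewer than 100 CPM of Otof (otoferlin, a marker of hair cells) and fewer than 10000 CPM of Ccer2. A UMI (unique molecular identifier) stands for 1 captured transcript, and CPM scales the UMIs of a gene to 1000000 UMIs in all. Of 15416 cells that passed the gene and mitochondrial limits, 1092 (7.08%) met the rule. The cells were selected on the measured values of Slc32a1, Tubb3, Otof and Ccer2, so these levels are a description and were not tested.

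The organoids were grown from the embryonic stem cell line Atoh1-nGFP-ESC, in which a nuclear GFP reports on Atoh1, a bHLH factor needed to make hair cells. All 4 libraries came from this line, 1 library each for organoids of day 16, of day 20, of day 21 with high GFP signal and of day 21 with low GFP signal. Per the labels' protocols, whole organoids were dissociated and sorted by GFP before loading on a 10x Genomics chip; the labels give neither the gates of day 16 and day 20 nor how many organoids were pooled. A library's day and sort cannot be told apart from the library itself. The labels call the cells otic lineage. In the Slc32a1-positive neurons, 17 pan-neuronal genes, without Tubb3, summed to between 8658 and 13046 CPM. In the same libraries they summed to 165 to 483 CPM in mesenchyme cells and 1441 to 3002 CPM in hair cells. Mesenchyme cells had 5 or more UMIs each of Col1a1 and Col3a1 and no Tubb3 UMI, and hair cells had 100 CPM or more of Otof and 2 or more Myo7a UMIs. The rule asks for Tubb3 and the mesenchyme class for its absence, so the contrast with mesenchyme was in part set by selection. For 7 markers of supporting cells and otic epithelium, the sums were 107, 15.2, 236 and 631 CPM in day 16, day 20, GFP high and GFP low neurons. Hair cells had 2079 to 3732 CPM. Mesenchyme cells had 57.3, 105, 870 and 217 CPM, and the Slc17a6-positive neurons defined below 131, 37.9, 295 and 303 CPM. By these markers the cells were neurons, with otic markers below the level of hair cells. In GFP low their otic sum lay above those of mesenchyme cells and Slc17a6-positive neurons.

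Inhibitory neurons release GABA or glycine. GABA is made from glutamate by the decarboxylases Gad1 and Gad2, both GABA and glycine are loaded into vesicles by Slc32a1, and glycine is taken up at glycinergic terminals by Slc6a5. In the hindbrain, cerebellum and dorsal spinal cord, many inhibitory neurons arise from Ptf1a progenitors and carry Pax2, Lhx1 and Lhx5, whereas excitatory neurons of the Atoh1 lineage carry Barhl1, Barhl2, Lhx2 and Lhx9 and load glutamate with Slc17a6. Engrailed genes mark the midbrain and anterior hindbrain, and Hox genes mark successively more posterior levels of hindbrain and spinal cord.

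The genes for the vesicular transporter and for both GABA synthases lie on mouse chromosome 2, and their promoters are shown because Slc32a1 defines the class and Gad1 and Gad2 were among its most raised genes. Sequences run from 250 bases before to 50 after the transcript start on the plus strand, from RefSeq on GRCm38.p6, and capitals mark every CANNTG, the E-box bound by basic helix-loop-helix factors (this motif reads the same on both strands, and no 2 copies overlapped). The windows are chr2:158610508-158610807 for Slc32a1, chr2:70561879-70562178 for Gad1 and chr2:22622077-22622376 for Gad2.
Slc32a1: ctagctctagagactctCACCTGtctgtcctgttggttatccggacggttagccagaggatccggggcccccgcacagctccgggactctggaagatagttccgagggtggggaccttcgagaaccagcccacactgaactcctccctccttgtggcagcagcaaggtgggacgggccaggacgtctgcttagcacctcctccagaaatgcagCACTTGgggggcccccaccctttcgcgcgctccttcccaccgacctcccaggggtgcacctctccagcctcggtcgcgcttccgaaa
Gad1: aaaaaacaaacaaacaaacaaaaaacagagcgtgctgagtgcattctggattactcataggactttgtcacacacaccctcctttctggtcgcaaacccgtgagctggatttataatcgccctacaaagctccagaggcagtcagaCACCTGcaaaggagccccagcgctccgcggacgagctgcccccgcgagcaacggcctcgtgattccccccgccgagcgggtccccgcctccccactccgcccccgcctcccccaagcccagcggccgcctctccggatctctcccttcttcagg
Gad2: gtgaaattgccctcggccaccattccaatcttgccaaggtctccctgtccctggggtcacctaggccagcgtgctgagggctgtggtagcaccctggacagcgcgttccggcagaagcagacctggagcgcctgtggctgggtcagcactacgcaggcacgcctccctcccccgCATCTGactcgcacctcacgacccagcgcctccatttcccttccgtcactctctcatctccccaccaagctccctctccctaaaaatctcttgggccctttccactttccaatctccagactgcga
The Slc32a1 window held 2 E-boxes and the Gad1 and Gad2 windows 1 each. Among all 32851 promoter windows of the table, 72.3% held 1 or more and the median was 1, so these counts are common. Their GC shares were 63.3% for Slc32a1, 60.0% for Gad1 and 61.3% for Gad2, against a median of 52.7% over all windows.

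The class made up 13.2% of the cells at day 16 (462 of 3496, 95% Clopper-Pearson interval 12.1 to 14.4) and 4.22% at day 20 (192 of 4553, 3.65 to 4.84). At day 21 it made up 1.58% of the GFP high cells (56 of 3544, 1.20 to 2.05) and 9.99% of the GFP low cells (382 of 3823, 9.06 to 11). The intervals of the 4 libraries did not overlap, but they cover counting error only, and the sort sets what each library holds. Hair cells, for example, were 62.0% of the GFP high library and 15.6% of the GFP low library. Taken over Tubb3-positive cells alone, which the rule also screens for Otof and Ccer2, the shares lay closer together, at 24.6% (day 16), 19.2% (day 20), 16.9% (GFP high) and 22.3% (GFP low).

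Depth was the other measure that differed between libraries. The 4 tables held 3844 to 5619 barcodes and 47309092 to 115739093 UMIs, and the Slc32a1-positive neurons had a median of 18434 UMIs per cell in the day 16 library, 12950 in day 20, 23603 in the GFP high and 22144 in the GFP low library. With every cell thinned to 3000 UMIs before the rule was applied, the shares were 2.62%, 1.15%, 0.142% and 2.28% in that order, which kept the order of the libraries. High doublet scores were held by 31, 8, 3 and 20 of the cells, 62 in all; these cells were kept. Between 1 and 8 filtered barcodes were shared by each pair of libraries, and no barcode was an Slc32a1-positive neuron in both libraries of a pair.

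Slc32a1 itself had a median of 3 UMIs per cell at day 16, at day 20 and in GFP high, and 5 in GFP low, with the highest cells at 22, 17, 12 and 33. Many cells sat at the limit: 150, 52, 19 and 55 cells had exactly 2 UMIs. Just inside the limit, 88.0% of the 276 cells with 2 UMIs also held a Gad1 or Gad2 UMI and 37.7% held Pax2. Just outside it, the values were 77.3% and 30.8% of the 415 cells with 1 UMI, and 21.0% and 13.1% of the 3418 cells with 0.

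Gad1 or Gad2 transcripts were found in 1021 of the 1092 cells (93.5%). The share was 93.9% for day 16, 90.1% for day 20, 94.6% for the GFP high and 94.5% for the GFP low library. At 3000 UMIs per cell it was 59.6% (95% Clopper-Pearson interval 54.9 to 64.1), 62.6% (55.0 to 69.7), 64.3% (50.4 to 76.6) and 61.0% (55.9 to 66.0), against 0.820% to 2.17% of mesenchyme cells and 7.69% to 10.9% of hair cells at the same depth. The share with a GABA synthase transcript was thus alike in the 4 libraries within counting error and well above both other cell types. Gad1 and Gad2 were found together in 316, 108, 33 and 245 cells of the 4 libraries.

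Transcripts of the glycine transporter were less common, and uneven by CPM. Slc6a5 was found in 66 of 462 cells at day 16, 17 of 192 at day 20, 22 of 56 in GFP high and 113 of 382 in GFP low, at 9.64, 7.04, 32.3 and 21.2 CPM. At 3000 UMIs the shares were 4.89% (95% interval 3.09 to 7.31), 2.23% (0.612 to 5.62), 5.36% (1.12 to 14.9) and 6.63% (4.34 to 9.63). These intervals overlapped. Mesenchyme cells had 0% in 3 libraries and 0.0586% at day 20. Of the Slc6a5-positive cells, 63, 17, 21 and 110 also held Gad1 or Gad2. Most cells with the glycine transporter therefore also carried a GABA synthase, in every library. So did most of the class as a whole, at 93.9%, 90.1%, 94.6% and 94.5% in the same order. A link between Slc6a5 and the synthases was not tested.

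The other vesicular transporter, Slc17a6, was rare. It was found in 37, 2, 1 and 17 cells of the 4 libraries, and 2 or more UMIs of both transporters were found in 30, 0, 1 and 13 cells. The cells with both at day 16 and in GFP low had a median of 43886 and 58077 UMIs, above the medians of their class. They were left out of the comparison that follows.

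Which genes accompany the inhibitory transporter was examined by comparing the Slc32a1-positive neurons with Slc17a6-positive neurons of the same libraries (260, 95, 75 and 363 cells with 2 or more Slc17a6 and fewer than 2 Slc32a1 UMIs). UMIs were summed per library and class and tested with edgeR's quasi-likelihood test with the library as a block, with Benjamini-Hochberg adjustment over 12515 genes. Genes of GABA synthesis, Slc6a5, Pax2, Lhx1 and Lhx5 were higher, and factors of the Atoh1 and other excitatory lineages were lower. In all, 158 genes (1.26% of those tested) were higher and 250 (2%) were lower at an adjusted p under 0.05. With the block, the p-values measure how the difference between the classes varies over 4 libraries that differ in day and sort. Nothing shows that the libraries came from separate differentiations. Leaving out day 16, day 20 or GFP low reduced the calls to 96, 50 and 51 higher and 124, 91 and 82 lower, and without GFP high they were 164 and 197.

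**Figure D1:**
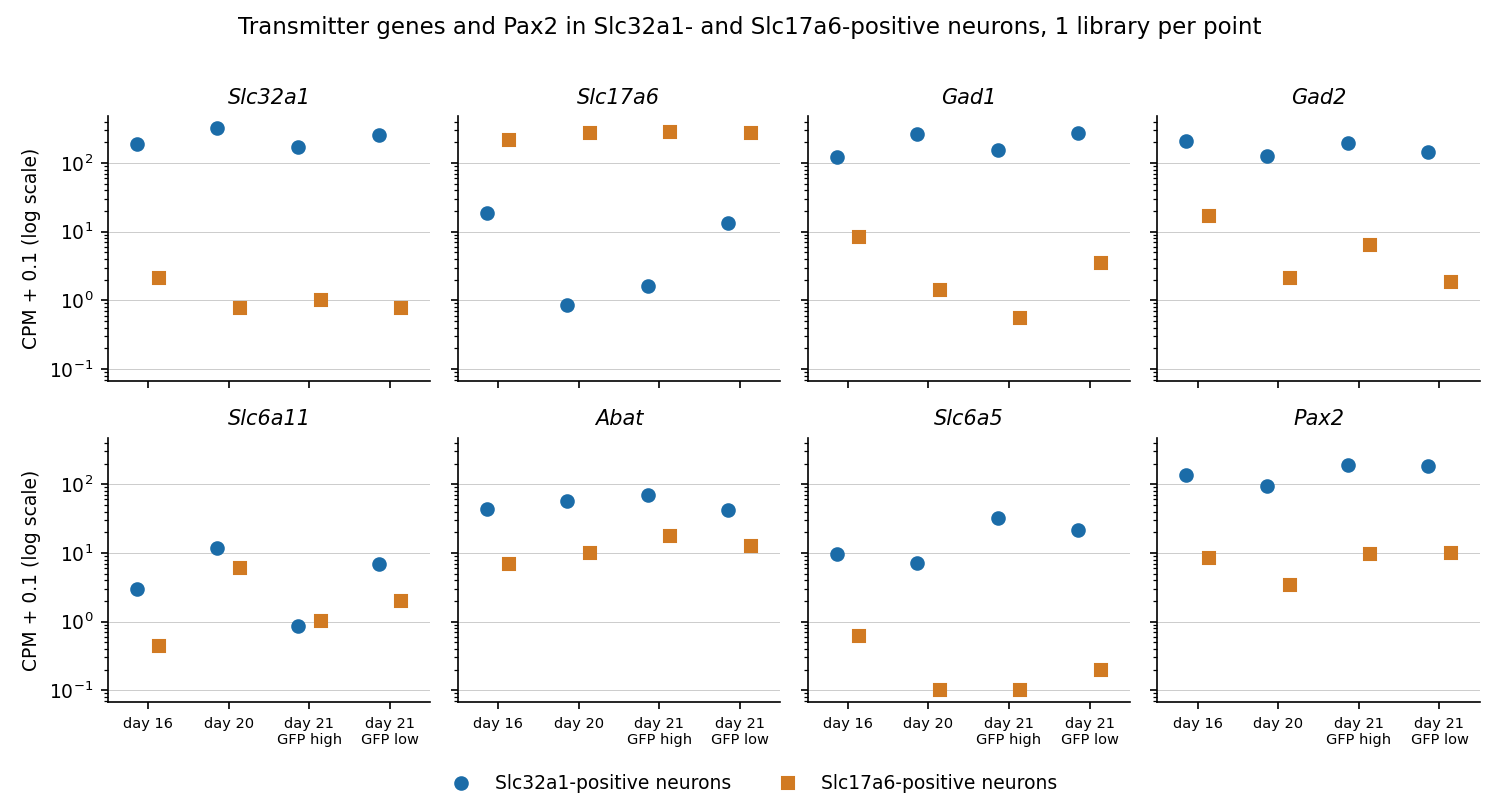
Level of 8 genes in CPM plus 0.1 on a log scale, in all Slc32a1-positive neurons (circles) and Slc17a6-positive neurons (squares) of each library; each point is 1 library. Gad1 lies between 124 and 276 CPM in the Slc32a1-positive neurons and between 0.457 and 8.14 CPM in the Slc17a6-positive neurons.

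Gad1 stood at 134, 262, 156 and 292 CPM in the Slc32a1-positive neurons of the 4 libraries, in the order day 16, day 20, GFP high, GFP low, against 8.14, 1.33, 0.457 and 3.45 CPM in the Slc17a6-positive neurons. The classes did not overlap, and the log2 fold change was 5.73 ± 0.52 (SE, 4 libraries; edgeR adjusted p = 0.00414). Gad2 stood at 232, 127, 202 and 152 CPM against 16.6, 1.99, 6.39 and 1.73 CPM, a log2 fold change of 5.03 ± 0.43 (edgeR adjusted p = 0.00378). Of the 7 tested genes of GABA synthesis, loading and uptake, 4 were higher and none was lower, with a median log2 fold change of 1.73 against 0.01 over all genes. Abat, which breaks down GABA, was among them (2.29 ± 0.18). Gad1, Gad2 and Abat were also called without each library in turn. Slc6a5 was at 10.8, 7.04, 33.1 and 22 CPM, against 0.509, 0, 0 and 0.0959 CPM in Slc17a6-positive neurons (edgeR adjusted p = 0.00423).

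The noncoding gene Gm14204 was at 95.9, 81.5, 85.0 and 76.0 CPM in Slc32a1-positive neurons, against 4.75, 0.664, 0 and 0.384 CPM in Slc17a6-positive neurons. Its log2 fold change, 5.80 ± 0.53 (edgeR adjusted p = 0.00414), was the highest of the called genes at 50 CPM or more other than Slc32a1, which chose the cells. It lies on the minus strand at chr2:158595472-158610723, immediately before the start of Slc32a1 on the plus strand at chr2:158610767-158615748 (GENCODE M21, GRCm38), without overlapping it. Slc30a3, which loads zinc into synaptic vesicles, was at 31.6, 36.7, 76.4 and 59.0 CPM in Slc32a1-positive neurons, against 1.87, 1.33, 0.457 and 2.30 CPM in Slc17a6-positive neurons. Pnoc, the precursor of the neuropeptide nociceptin, was at 66.7, 144, 193 and 193 CPM against 3.90, 6.64, 23.3 and 7.39 CPM, a log2 fold change of 4.10 ± 0.28 (edgeR adjusted p = 0.00185). Sp5, a zinc finger factor known as a target of Wnt signalling, was at 48.5, 214, 28.3 and 94.5 CPM against 3.90, 0, 0.913 and 1.15 CPM. These 4 genes were higher in 4 of 4 libraries and were called without each library in turn. Pcp2 (4.25 ± 0.76) and Car8 (4.0 ± 0.76), genes of Purkinje cells, were higher in 3 of 4 libraries, not in GFP high. Car8 lost its call without day 16, day 20 or GFP low, with edgeR adjusted p-values of 0.117, 0.146 and 0.165. Pcp2 lost it without day 16 or day 20 and was not tested without GFP low.

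**Figure D2:**
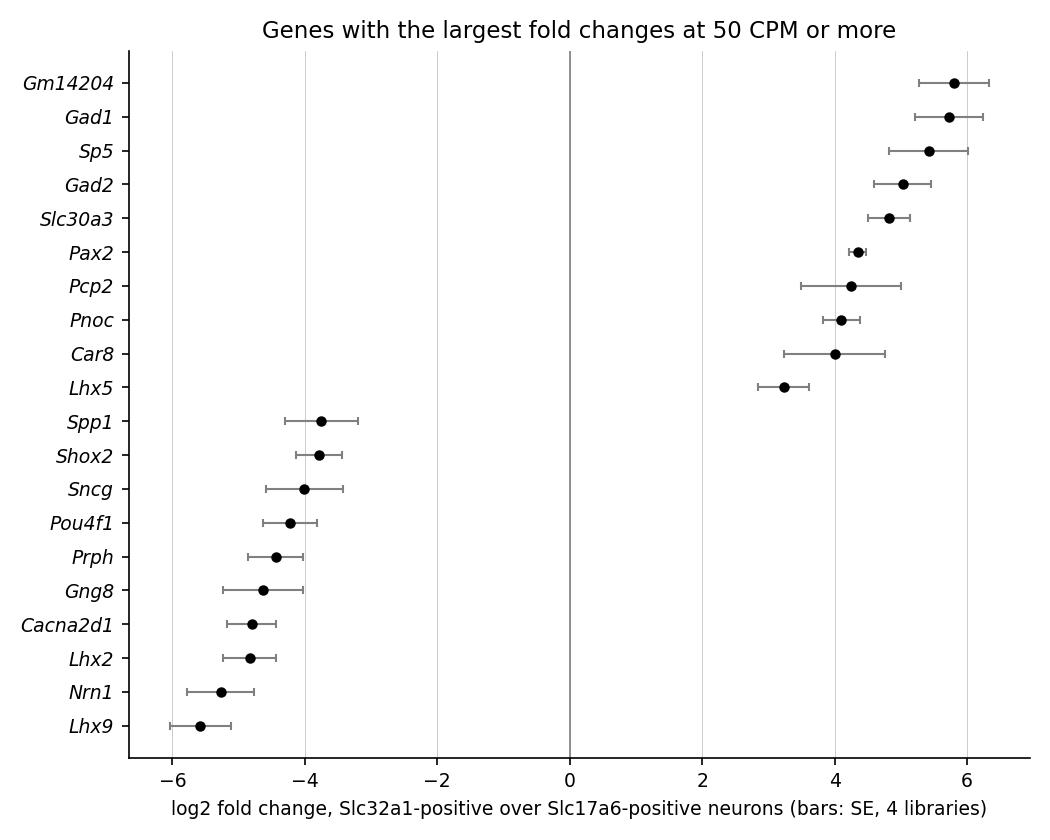
Log2 fold change of Slc32a1-positive over Slc17a6-positive neurons for the 10 most raised and 10 most lowered genes at 50 CPM or more and an edgeR adjusted p under 0.05; points are estimates and bars are SE over 4 libraries. Pax2 has the shortest bar, at 4.35 ± 0.13, and Pcp2 and Car8 have the longest, with an SE of 0.76 each.

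Transcription factors divided the 2 classes. Of 18 tested factors known from inhibitory neurons of hindbrain and dorsal cord, 9 were higher in the Slc32a1-positive neurons and none was lower, with a median log2 fold change of 1.95. Pax2 was the clearest, at 142, 95.2, 197 and 194 CPM against 8.31, 3.32, 9.59 and 9.88 CPM in Slc17a6-positive neurons, with a log2 fold change of 4.35 ± 0.13 (edgeR adjusted p = 5.22e-05). At 3000 UMIs, Pax2 was found in 25.3%, 29.1%, 39.3% and 36.1% of the neurons, 37.1%, 9.68%, 25.1% and 13.8% of hair cells, and 0.520%, 0.351%, 0% and 1.09% of mesenchyme cells. Lhx5 (3.23 ± 0.38) and Lhx1 (2.86 ± 0.30), LIM factors of dorsal inhibitory neurons, were higher in 4 of 4 libraries. Tfap2a (2.94 ± 0.31), a factor of amacrine and dorsal cord inhibitory neurons, and Prdm8 (2.61 ± 0.18), a zinc finger repressor, were higher as well. Neurod2 (2.09 ± 0.34), Neurod6 (1.27 ± 0.21) and Sox14 (2.82 ± 0.45) were called too, but each lost its call when day 20 or GFP low was left out, Neurod2 and Neurod6 also without day 16; Sox14 was higher in 3 of 4 libraries. The ninth was Bhlhe22, a bHLH factor. It was among the markers that named the class, so its call is a description and not a separate result. Without day 16, day 20, GFP high or GFP low the count, with Bhlhe22 in it each time, was 6, 7, 13 and 6.

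Of 23 tested factors known from excitatory neurons, none was higher and 10 were lower, with a median log2 fold change of -1.81. Lhx9 was at 6.95, 0.370, 0.787 and 1.59 CPM in the Slc32a1-positive neurons, against 441, 124, 6.85 and 26.7 CPM in Slc17a6-positive neurons (log2 fold change -5.58 ± 0.46, edgeR adjusted p = 0.00354). Lhx2 (-4.83 ± 0.40), Barhl2 (-5.44 ± 0.27) and Barhl1 (-3.92 ± 0.42), factors of Atoh1-derived neurons, were also lower. So were Lmx1b (-5.49 ± 0.41) and Tlx3 (-4.11 ± 0.51), factors of dorsal excitatory neurons. Pou4f1 (-4.22 ± 0.41), Evx2 (-4.96 ± 0.45) and Shox2 (-3.79 ± 0.35) were lower too. The count was 12, 9, 12 and 11 without day 16, day 20, GFP high or GFP low, and Tlx3 lost its call without day 20.

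Zic1, Zic2, Zic4 and Zic5, zinc finger factors of dorsal neural tube and cerebellum, were at higher levels in the Slc32a1-positive neurons in 4 of 4 libraries. Zic1 and Zic2 were among the markers that named the class, so they are given as levels: Zic1 was at 312, 271, 146 and 139.8 CPM, against 69, 42.5, 49.3 and 28.2 CPM in Slc17a6-positive neurons. Zic2 was at 131, 241, 77.2 and 65.5 CPM against 36.6, 34.5, 20.1 and 15.7 CPM. Zic5 and Zic4 passed the test, at 3.21 ± 0.43 for Zic5 and 1.81 ± 0.23 for Zic4 on the log2 scale, though both lost the call without day 20, and Zic4 also without day 16. Mesenchyme cells also carried Zic genes: at 3000 UMIs, Zic1 or Zic2 was found in 57.3%, 58.7%, 19.6% and 28.9% of the Slc32a1-positive neurons and in 8.32%, 1.87%, 26.9% and 27.2% of mesenchyme cells. At day 21 these genes did not set the neurons apart from mesenchyme.

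The other given markers were Bhlhe22 and Glra2, a subunit of the glycine receptor. Bhlhe22 was at 37.5, 84.1, 257 and 164 CPM in Slc32a1-positive neurons, against 7.46, 37.9, 47.9 and 20.1 CPM in Slc17a6-positive neurons. Glra2 was at 38.6, 77.4, 17.3 and 64.9 CPM against 4.24, 19.9, 14.6 and 12.9 CPM. In GFP high the Glra2 levels of both classes lay close together.

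Of 17 tested pan-neuronal genes, 2 were lower and none was higher: Nefl, a neurofilament (-0.95 ± 0.09), and Gap43, a growth cone protein (-0.96 ± 0.17; the call was lost without day 20, GFP high or GFP low). None of 11 tested GABA receptor genes passed the edgeR test, 3 had an unadjusted p under 0.05, and DESeq2 called 1 lower. Of 21 axon guidance and adhesion genes 4 were higher, including Nrxn3 (2.66 ± 0.14), the netrin receptor Unc5c (2.78 ± 0.29) and Robo3 (2.01 ± 0.22), which governs midline crossing, and 1 was lower, Nrp2 (-1.06 ± 0.15; lost without day 20 or GFP low). Of 17 tested channel genes, 2 were lower, Cacna2d1 (-4.80 ± 0.37) and the sodium channel Scn9a (-2.26 ± 0.16). Peptide genes other than Pnoc split little: of 16 tested, 1 was higher and 1 lower, the lower being Adcyap1 (-3.52 ± 0.24). Nrn1, Gng8, Prph, Sncg and Spp1, the remaining large decreases, had log2 fold changes of -5.27, -4.63, -4.44, -4.01 and -3.75. Gng8 and Spp1 lost their calls without day 20, and Sncg without day 16 or day 20.

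Some RNA of other cell types moved with this comparison. Of 5 tested otic epithelium markers 2 were higher in the Slc32a1-positive neurons, Oc90 (3.69 ± 0.49) and Otol1 (1.97 ± 0.31), components of the otoconial matrix; in GFP low, 87.2% of the Oc90 UMIs of the class lay in 5 cells. Oc90 lost its call without GFP low, and Otol1 without day 20 or GFP low. Of 8 mesenchyme markers 1 was higher, Twist1 (1.21 ± 0.23), which was called only with day 20, GFP high and GFP low all kept. The summed mesenchyme markers were 705, 639, 242 and 41.0 CPM in Slc32a1-positive neurons, against 556, 524, 139 and 168 CPM in Slc17a6-positive neurons. Their part in the result was not tested.

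Against Tubb3-positive cells without an Slc32a1 UMI, of which the 4 libraries held 1200, 698, 263 and 1257, the Slc32a1-positive neurons had 1849 genes higher (13.0% of 14216) and 2493 lower (17.5%) by the edgeR test. That class holds Slc17a6-positive neurons and cells of other types with 1 or more Tubb3 UMIs. With 3 or more Tubb3 UMIs asked of both classes the counts were 619 and 734, without day 16 they were 696 and 1251, and without GFP low 525 and 802. Gad1 (3.73 ± 0.22), Gad2 (3.82 ± 0.29), Pnoc (3.97 ± 0.31) and Pax2 (2.84 ± 0.16) were again among the 10 most raised genes. Lamp5, a membrane protein known from cortical interneurons, joined them at 3.53 ± 0.44. Here 11 of 17 pan-neuronal genes, 9 of 14 glutamate receptor genes and 6 of 12 GABA receptor genes were higher. Lower were 8 of 13 cell cycle genes and 10 of 15 Notch ligands and targets, and the largest decreases were in genes of skin such as Calm4 (-6.44 ± 0.71) and Krtdap (-5.59 ± 0.66) and in Dppa5a, a gene of pluripotent cells (-6.33 ± 0.67).

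The neurons of the 4 libraries differed in axial genes. En2 was at 209 CPM in the day 16 library, 137 in day 20, 14.6 in the GFP high and 57.6 in the GFP low library, and En1 at 70.7, 58.5, 35.4 and 42.3 CPM. Hox genes ran the other way: Hoxb2 was at 0.779, 18.1, 128 and 90.5 CPM, Hoxb8 at 0.487, 3.70, 396 and 69.7 CPM, and Hoxb9 at 0.682, 1.48, 152 and 30.9 CPM. Zic1 was at 287, 271, 142 and 131 CPM. The day 16 and day 20 neurons were thus higher in En2 and Zic1 and lower in these Hox genes than the day 21 neurons. At day 20, 77.6% of the Hoxb2 UMIs lay in 5 cells. Both day 21 libraries carried Hox genes from anterior to posterior paralogues.

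**Figure D3:**
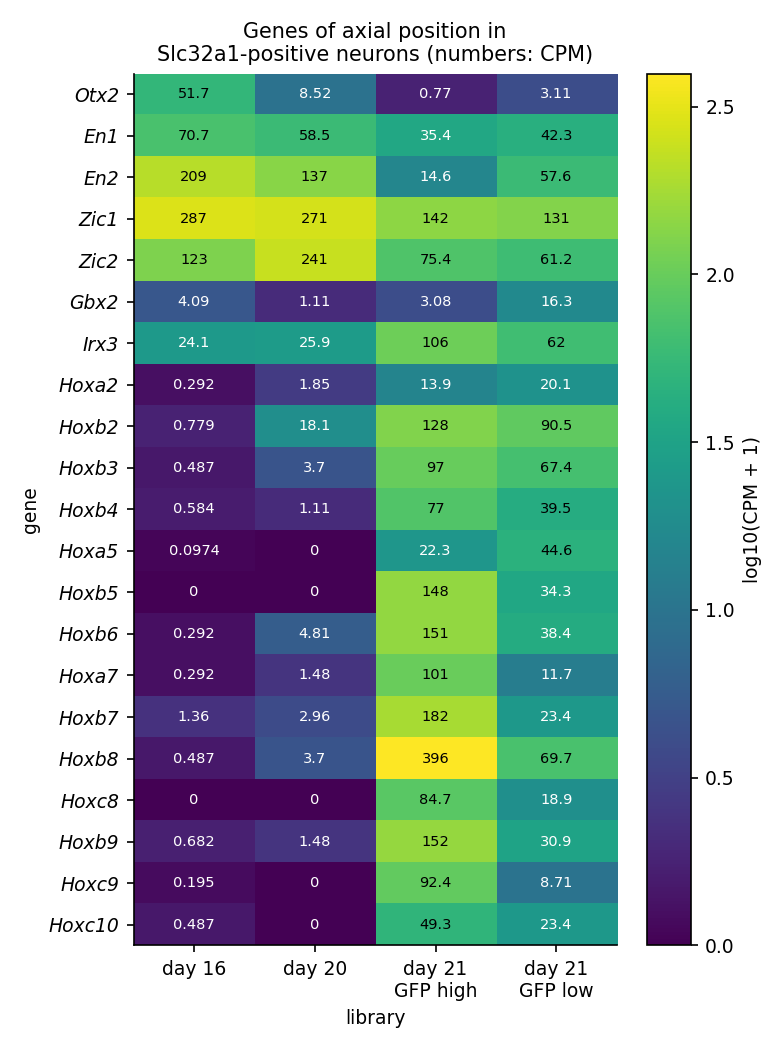
Levels of 21 genes of axial position in Slc32a1-positive neurons; columns are the 4 libraries, colour is log10(CPM + 1) and the numbers are CPM. The Hox rows reach at most 18.1 CPM at day 16 and day 20, and Hoxb8 is the highest Hox row in GFP high, at 396 CPM.

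At day 16, 367 of 462 cells held En1 or En2 and 16 held any of the 23 listed Hox genes; at day 20 the counts were 135 and 11 of 192. In GFP high, 17 of 56 cells held an Engrailed gene, 34 a Hox gene and 10 both. In GFP low, 182 of 382 held an Engrailed gene, 193 a Hox gene and 72 both, which was 39.6% of the Engrailed cells and 37.3% of the Hox cells. At 3000 UMIs, Hox genes were found in 0.667%, 4.47%, 55.4% and 35.0% of the Slc32a1-positive neurons of the 4 libraries, and in 2.43%, 2.40%, 1.92% and 4.35% of mesenchyme cells. At day 16 the share was below that of mesenchyme and is read as background. Slc17a6-positive neurons had shares of 0.787%, 14.3%, 18.7% and 29.5%.

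**Figure D4:**
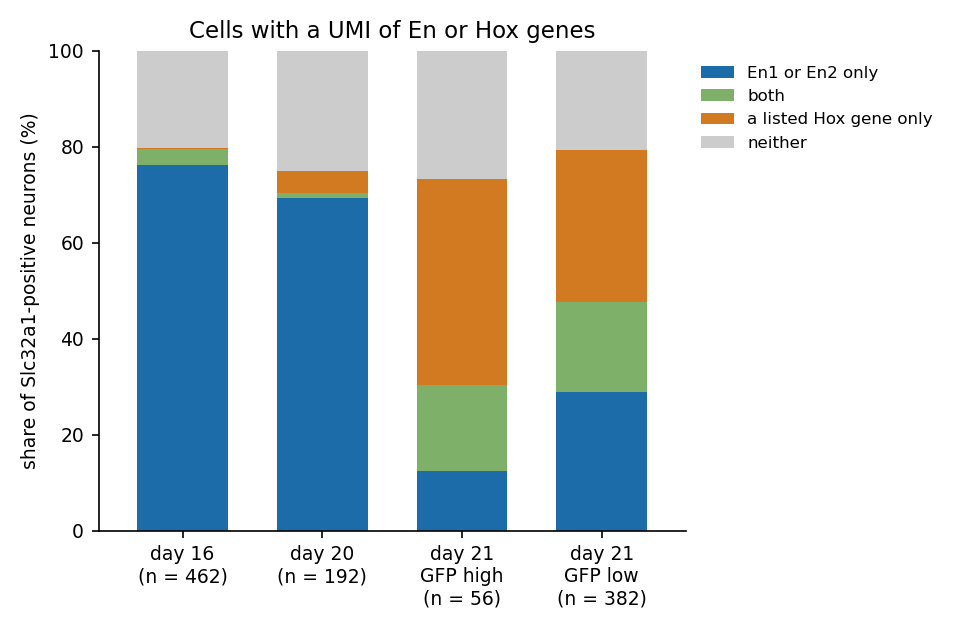
Share of Slc32a1-positive neurons of each library with a UMI of En1 or En2 only, of both, of a listed Hox gene only, or of neither (n is the number of cells, without thinning). Cells with a Hox gene are 16 of 462 at day 16, 11 of 192 at day 20, 34 of 56 in GFP high and 193 of 382 in GFP low.

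At day 21, the GFP high neurons were compared with the GFP low neurons. With 1 library each there is no test: a gene is called by size, when its CPM differed by 2-fold or more and the counting interval of the ratio excluded 1. By this rule 237 genes (2.45% of 9684) were higher and 517 (5.34%) were lower in GFP high. Of 23 axial genes at 10 CPM or more, 12 were higher, 11 of them Hox genes, and 2 were lower, En2 and Gbx2. Hoxb8 was at 396 CPM in GFP high and 69.7 CPM in GFP low, a ratio of 5.69 (95% counting interval 5.06 to 6.39), and was found in 30.4% of GFP high and 11.5% of GFP low neurons. Hoxb7 had a ratio of 7.78 (6.46 to 9.38), Hoxa7 of 8.60 (6.64 to 11.2) and Hoxc9 of 10.6 (7.96 to 14.2). These ratios rest on few cells: 60.8% of the Hoxb8 UMIs and 87.5% of the Hoxc9 UMIs of the GFP high neurons lay in 5 cells.

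Prox1, a homeobox factor of several interneuron types, was at 128 CPM in GFP high and 21.5 CPM in GFP low (ratio 5.95, 4.82 to 7.33), in 46.4% of GFP high and 22.3% of GFP low neurons. Of 8 factors known from forebrain GABA neurons, 6 were higher, among them Sp8 (ratio 4.62), Dlx1 (4.55), Dlx2 (3.94) and Dlx5 (3.23). Dlx1, Dlx2 or Dlx5 was found in 12 of 56 GFP high and 33 of 382 GFP low neurons. At 3000 UMIs the shares were 16.1% in GFP high (95% interval 7.62% to 28.3%) and 4.24% in GFP low. In the same 2 libraries they were 13.5% and 14.1% of mesenchyme cells, 2.32% and 1.17% of hair cells, and 4% and 2.79% of Slc17a6-positive neurons. The GFP high share was thus close to that of mesenchyme and above that of hair cells. Its interval overlapped that of the Slc17a6-positive neurons of GFP high, 0.833% to 11.2%. The GFP low share was below that of mesenchyme. Of 12 cell cycle genes 5 were higher, including the cyclin Ccnd2 at 204 CPM in GFP high and 63.1 CPM in GFP low (ratio 3.23, 2.79 to 3.74).

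Several factors of another inhibitory lineage were at lower CPM in GFP high. Gata3, which acts with Gata2 and Tal1 in inhibitory neurons of midbrain and ventral cord, had no UMI in GFP high, which allows up to 2.31 CPM, and stood at 62.4 CPM in GFP low, so it was at least 27.0-fold lower against a floor of 3 counts. Gata2 and Tal1 were each at 0.770 CPM in GFP high (1 UMI), with counting intervals of the ratio of 8.74e-04 to 0.195 and 8.06e-04 to 0.180, against 22.2 CPM of Gata2 and 24.1 CPM of Tal1 in GFP low. Of 21 inhibitory factors 7 were lower and 1 was higher, and the median log2 ratio of CPM plus 1 was 0.07 over the list and -0.07 over all genes compared. Foxp2 was at 8.47 CPM in GFP high and 59.9 CPM in GFP low (ratio 0.141, 0.0701 to 0.255). The proteoglycan gene Spock3 was at 10.0 CPM in GFP high and 85.5 CPM in GFP low (0.117, 0.0621 to 0.201). Of 14 presynaptic genes 4 were lower, such as Pclo, a scaffold of the active zone, at 23.9 CPM in GFP high and 93.5 CPM in GFP low. Gad1, at 152 CPM in GFP high and 276 CPM in GFP low, and Gad2, at 198 CPM in GFP high and 146 CPM in GFP low, did not reach a 2-fold difference.

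RNA of other cell types moved with this comparison as well. All 5 tested mesenchyme markers were higher in GFP high. Col1a1 was at 128 CPM in GFP high and 3.01 CPM in GFP low, but 99.4% of its UMIs in GFP high lay in 5 cells, and the ratio of 42.5 became 0.360 among neurons with 3 or more Slc32a1 UMIs. Of 7 otic markers 5 were lower, including Oc90 at 26.2 CPM in GFP high and 147 CPM in GFP low, where 87.2% of the UMIs lay in 5 cells. Emp3, a membrane protein, had a ratio of 10.9 that was 1.68 among neurons with 3 or more Slc32a1 UMIs, and the histone gene Hist1h1b had one of 5.29 that was 2.14 with 1 or more. The part of this RNA in the other differences was not tested.

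Day 20 neurons were set against day 16 neurons by the same rule. In all, 371 genes (4.01% of 9249) were higher and 543 (5.87%) lower at day 20. The leading increases included genes known from cerebellar Purkinje cells, but not every such gene rose. Foxp2, a factor of Purkinje cells, was lower, at 114 CPM at day 20 and 278 CPM at day 16 (ratio 0.411, 95% counting interval 0.365 to 0.463). Skor2, another such factor, was found in 8 of 192 day 20 neurons (4.17%) and 49 of 462 day 16 neurons (10.6%). With cells thinned to 3000 UMIs its shares were 1.12% at day 20 and 2.44% at day 16. Their 95% intervals overlapped, at 0.136 to 3.98 and 1.23 to 4.33. Pcp2, a Purkinje cell protein, was at 384 CPM at day 20 and 26.6 CPM at day 16 (ratio 14.4, 95% counting interval 12.6 to 16.5). Calb1, a calcium buffer, was at 471 CPM at day 20 and 39.8 CPM at day 16 (11.8, 10.6 to 13.2). Car8, a carbonic anhydrase relative that binds the IP3 receptor, was at 571 CPM at day 20 and 67.6 CPM at day 16 (8.44, 7.71 to 9.25), and Itpr1, that receptor, at 61.8 CPM at day 20 and 8.08 CPM at day 16 (7.65, 5.84 to 10.1). The Pcp2 UMIs were concentrated: 28 of 192 neurons at day 20 and 19 of 462 at day 16 held any, and 5 cells held 47.6% of them at day 20 and 89.7% at day 16. For Calb1, 5 cells held 47.0% of the UMIs at day 20 and 59.7% at day 16, and for Car8 35.4% and 23.3%. The Pcp2 ratio was 9.05 as a mean of per-cell CPM, 45.8 with 3 or more Slc32a1 UMIs and 64.6 among neurons with a Gad1 or Gad2 UMI, an alternative chosen after seeing the data.

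Other increases were found in more of the neurons. C1ql3, a secreted synaptic protein, was at 188 CPM at day 20 and 15.2 CPM at day 16 (ratio 12.4, 10.3 to 14.9), in 35.9% of day 20 and 8.23% of day 16 neurons. Akap7, a kinase anchoring protein, was at 229 CPM at day 20 and 26.3 CPM at day 16, in 60.4% of day 20 and 30.1% of day 16 neurons. Of 7 genes of GABA synthesis and uptake 2 were higher and none was lower, Gad1 (262 CPM at day 20, 124 CPM at day 16, ratio 2.12) and the transporter Slc6a11 (ratio 3.93). Gad2, the other GABA synthase, went the other way without reaching a 2-fold difference. It was at 127 CPM at day 20 and 208 CPM at day 16 (ratio 0.613, 0.546 to 0.687). Of 7 GABA receptor genes 2 were higher, among them Gabbr2, and of 12 glutamate receptor genes 4, with none lower on either list. The chloride exporter of mature neurons, Slc12a5, was at 67.0 CPM at day 20 and 27.3 CPM at day 16, and the calcium sensor Syt1 at 372 CPM at day 20 and 131 CPM at day 16.

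Of 13 excitatory factors 8 were lower at day 20, among them Lhx2 (1.11 CPM at day 20, 91.4 CPM at day 16, ratio 0.0122, 0.00250 to 0.0356) and Ebf3 (71.1 CPM at day 20, 317 CPM at day 16), and 1, Otp, was higher. In day 16 neurons, 41.8% of the Lhx2 UMIs lay in 5 cells. The 30 day 16 cells with 2 or more UMIs of both transporters were kept here, and day 20 had none. With only neurons of fewer than 2 Slc17a6 UMIs in both libraries, the Lhx2 ratio was 0.0302. The homeodomain factor Zfhx3 was at 51.5 CPM at day 20 and 294 CPM at day 16. Pou3f1 (14.8 CPM at day 20, 77.7 CPM at day 16) and Bcl11b (11.1 CPM at day 20, 57.2 CPM at day 16) were lower as well. Of 19 guidance genes 6 were lower, including the Slit receptor Robo1 (27.8 CPM at day 20, 64.3 CPM at day 16), and of 9 cell cycle genes 6. RNA of other cell types moved in the same direction: 3 of 3 tested markers of supporting cells and otic epithelium, 2 of 2 of Merkel cells and 3 of 5 of hair cells were lower. The 7 markers of supporting cells and otic epithelium summed to 15.2 CPM at day 20 and 107 CPM at day 16. All 4 epidermal markers were lower, summing to 3.33 CPM at day 20 and 116 CPM at day 16, and Krt17, a keratin, was at 0.741 CPM at day 20 (2 UMIs) and 104 CPM at day 16. The part of this RNA in the other differences was not tested. Crabp1, a retinoic acid binding protein, was at 285 CPM at day 20 and 45.9 CPM at day 16, with 90.6% of its day 20 UMIs in 5 cells, and its ratio of 6.21 was 3.21 among neurons with 1 or more Slc32a1 UMIs.

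**Figure D5:**
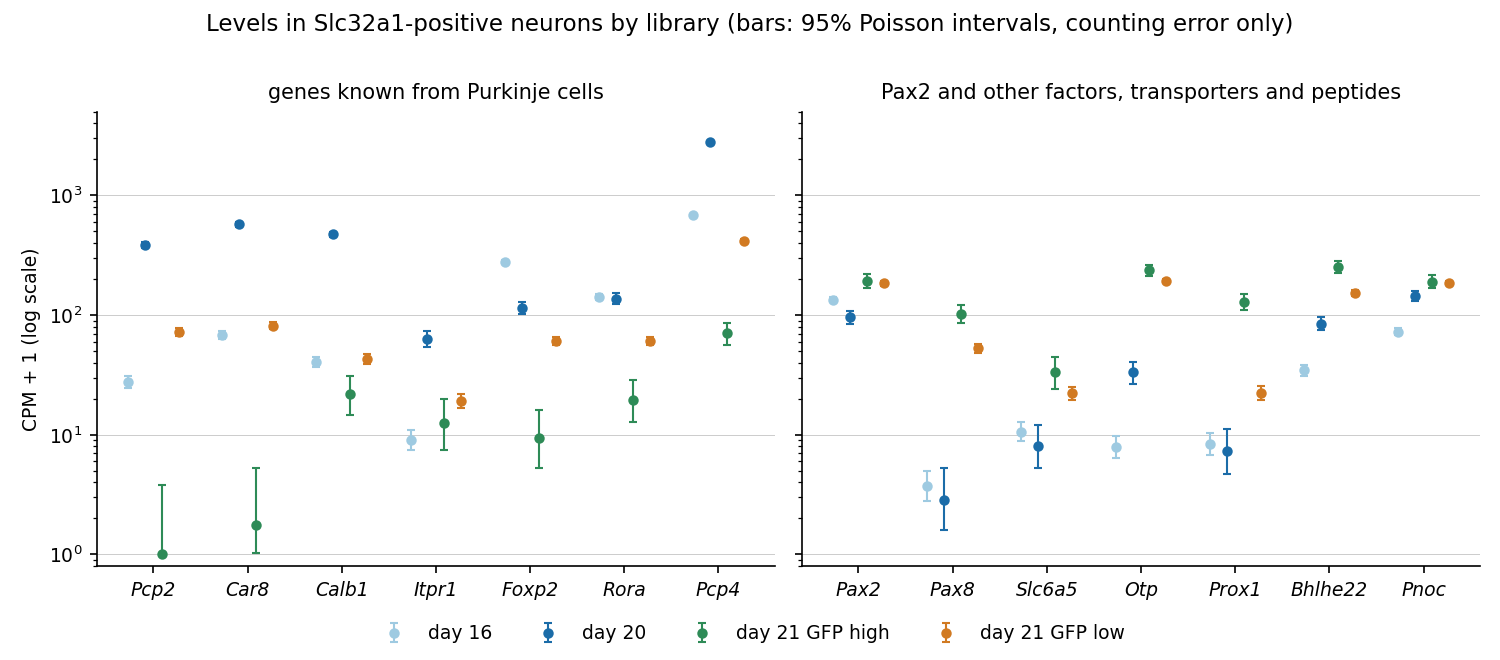
Levels in Slc32a1-positive neurons in CPM plus 1 on a log scale, with 95% Poisson intervals that cover counting error only; colours are the 4 libraries. Pcp2 is highest at day 20 (384 CPM) and has no UMI in GFP high, and Pax8 lies at 102 and 51.9 CPM in the day 21 libraries and below 3 CPM at day 16 and day 20.

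At day 16 and day 20, the Purkinje gene Car8 and Pax2 were found mostly in different cells. Car8 was found in 93, 46, 1 and 31 neurons of the 4 libraries, and Pax2 in 216, 98, 42 and 248. Both were found together in 11, 5, 0 and 12, which was 11.8%, 10.9%, 0% and 38.7% of the Car8 cells, while Pax2 was found in 46.8%, 51.0%, 75.0% and 64.9% of all cells of the class. No Pcp2 cell of day 20 held Pax2 (0 of 28). Of the Car8 cells of day 16 and day 20, 90 of 93 and 38 of 46 held Foxp2, a factor of Purkinje cells, found in 61.9% and 33.3% of all neurons of the class. Of the same cells, 78 and 37 held En1 or En2, and 89 and 45 held Lhx1 or Lhx5. For En1 or En2 these were 83.9% and 80.4% of the Car8 cells, against 79.4% and 70.3% of all neurons of the class. For Lhx1 or Lhx5 they were 95.7% and 97.8% of the Car8 cells, against 92.0% and 80.2% of all neurons of the class, so at day 16 both were close to the class. Skor2, another factor of Purkinje cells, was found in 22 of 93 Car8 cells at day 16 and 8 of 46 at day 20. These were 23.7% and 17.4% of the Car8 cells, against 10.6% and 4.17% of all neurons of the class. At 3000 UMIs, Car8 was found in 12.2% and 19.6% of the neurons of these libraries and in 0.520% and 0.293% of mesenchyme cells, but in 5.59% and 8.06% of hair cells. In GFP low the Car8 share of 4.77% lay between those of mesenchyme cells, 2.17%, and hair cells, 7.21%. This list of Purkinje genes was put together after their values had been seen.

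Among the cells with Slc6a5, Pax2 was common: 61 of 66, 13 of 17, 18 of 22 and 93 of 113 in the 4 libraries. These were 92.4%, 76.5%, 81.8% and 82.3%, against 46.8%, 51.0%, 75.0% and 64.9% of the whole class, so in GFP high the shares were close. In GFP high 18 of the 22, and in GFP low 83 of the 113, also held a Hox gene, against 4 of 66 at day 16 and 2 of 17 at day 20. The whole class differed in the same way, with a Hox gene in 60.7% of GFP high, 50.5% of GFP low, 3.46% of day 16 and 5.73% of day 20 cells. A link between Slc6a5 and Hox genes was not tested. Pax8, a close relative of Pax2, was at 2.73, 1.85, 102 and 51.9 CPM, and 11 of 13, 2 of 2, 17 of 17 and 86 of 100 of its cells held Pax2. Otp, a homeobox factor of hindbrain and hypothalamus, was at 6.91, 32.2, 236 and 191 CPM, with a Hox gene in 12 of 14 GFP high and 71 of 98 GFP low cells. These were 85.7% and 72.4% of the Otp cells, against 60.7% and 50.5% of the whole class. Gata2, Gata3 or Tal1 was found in 47, 10, 2 and 56 cells, of which 45, 10, 2 and 55 held Lhx1 or Lhx5, and 15, 1, 2 and 13 held Pax2. At day 16 and in GFP low, the Lhx1 or Lhx5 shares were 95.7% and 98.2%, near the 92.0% and 90.8% of the whole class. The Pax2 shares there were 31.9% and 23.2%, against 46.8% and 64.9% of the class. All these counts and shares are within libraries, and detection rises with depth.

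The neuropeptide somatostatin, Sst, was found in 62, 48, 6 and 109 cells, at 137, 252, 748 and 474 CPM; in GFP high 99.9% of its UMIs lay in 5 cells. Calb2, another calcium buffer, was at 83.5, 72.6, 120.1 and 96.5 CPM, and Nxph4, a neurexophilin, at 155, 212, 118 and 162 CPM. Npy was at 12.3, 1.11, 0.770 and 47.5 CPM, and Vip and Crh had no UMI in any library. Of 12 enzymes and transporters of acetylcholine and monoamine neurons, Th, which makes the dopamine precursor, was the highest in day 16 and both day 21 libraries, at 3.12, 0.741, 36.2 and 10.3 CPM in day 16, day 20, GFP high and GFP low neurons; in GFP high 87.2% of the Th UMIs lay in 5 cells.

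The reporter was read beside its gene. Atoh1 was at 10.0, 0.370, 3.08 and 1.35 CPM in the Slc32a1-positive neurons and was found in 17, 1, 4 and 11 cells; at 3000 UMIs its shares, 0.667%, 0%, 1.79% and 0.265%, lay below those of mesenchyme cells in all 4 libraries. Egfp was at 1662, 1143, 4269 and 948 CPM. At 3000 UMIs it was found in 74.7%, 73.7%, 94.6% and 48.5% of the neurons, against 55.1%, 73.2%, 23.1% and 22.8% of mesenchyme cells. In GFP high, the Egfp level was 4.50 times that of GFP low (95% counting interval 4.35 to 4.66); the day 21 cells were sorted on GFP. At day 20 the neurons and the mesenchyme cells had the same share within counting error.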

How the data were processed

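The authors deposited 1 matrix of raw UMI counts for each of 4 libraries; the matrices were made with Cell Ranger 6.1.2, per the file headers, while the submitters' processing notes name Cell Ranger 6.1.0, Seurat 4.0.6 and mm10. Whether counting used strand is not stated, so reads of Gad1, Pax2 and Slc32a1 cannot be told apart from those of the antisense genes that overlap them. Per the labels, the protocol loaded cells, whereas the sample descriptions speak of nuclei. The members and lists were chosen with earlier results of these data known.

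Each table had 32289 genes. Barcodes were filtered at 1000 genes and 15% mitochondrial UMIs, classes were set as described, and doublet scores came from Scrublet in scanpy 1.11.5 at 0.8% per 1000 barcodes; no doublets were removed. UMIs were summed per library and class and tested with edgeR 4.0.16 (quasi-likelihood, TMM, filterByExpr, library as block); DESeq2 1.42.0 was an alternative. A check on simulated counts with known changes preceded the tests. Comparisons of single libraries used CPM ratios with exact conditional binomial intervals, for genes at 10 CPM or more. Intervals cover counting error only. Named genes were the 10 highest and 10 lowest fold changes among called genes at 50 CPM or more, without genes of the rule; the single-library comparisons also asked for 30 UMIs and for detection in 10% of cells. Genes of the 359-gene lists were named beside them. Promoters came from RefSeq, and gene coordinates from GENCODE M21, which held 32158 of the gene identifiers. Some genes of these lists are counted but not reported here by name.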

Additional observations from a re-analysis of the deposited data

How the results depend on the processing

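The shares of Slc32a1-positive neurons moved with the threshold. With 3 or more Slc32a1 UMIs they were 8.92% of the day 16 cells, 3.07% of the day 20 cells, 1.04% of the GFP high cells and 8.55% of the GFP low cells. With 1 or more UMI they were 19.5% at day 16, 6.59% at day 20 and 12.0% in GFP low. With 2000 detected genes they were 14.7% at day 16 and 4.95% at day 20. With the rule applied at 3000 UMIs per cell they were 2.62%, 1.15%, 0.142% and 2.28% in day 16, day 20, GFP high and GFP low. The share of neurons with Gad1 or Gad2 was 93.9%, 90.1%, 94.6% and 94.5% without thinning, and 50%, 52.6%, 48.2% and 53.4% at 2000 UMIs.

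Against Slc17a6-positive neurons, the DESeq2 Wald test called 252 genes higher, no filter on low counts 359 higher and 566 lower, and the fit without the library block 30 higher and 55 lower, all of them also called with the block. Leaving out 1 library gave 50 to 164 genes higher and 82 to 197 lower. Of 63 listed or named genes called, 35 were called in every fit that left out 1 library. Against Tubb3-positive cells without Slc32a1, 3 or more Tubb3 UMIs gave 619 genes higher and 734 lower, no library block 486 and 859, and leaving out 1 library 525 to 2144 higher and 802 to 2607 lower. The cause of these differences was not tested, beyond fewer samples in the fits without a library.

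With no minimum CPM, GFP high over GFP low had 438 genes higher, and day 20 over day 16 had 757 higher and 1104 lower. Among the named genes, Col1a1 in GFP high over GFP low turned round, at a ratio of 0.360 with 3 or more Slc32a1 UMIs. Requiring a Gad1 or Gad2 UMI was chosen after seeing the data and kept each count of called genes within 1.5 times. The library block of the tested comparisons pairs the 2 classes of each library. Between libraries, each group has 1 library and the labels give no replicate numbers, so GFP high over GFP low and day 20 over day 16 had no pairing. With 56 cells, GFP high had the fewest neurons, so its genes of low count have the widest intervals.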
